A study of Mus musculus with 12 samples.

Results

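Levels of 9 of the 32285 genes measured in mouse paw epidermis are described here, all of them tied to the nuclear receptors PPAR and LXR, which sense fatty acids and oxysterols. The genes were chosen by symbol, as a group tied to these receptors, when earlier results of these data were known. They are the 3 PPAR genes Ppara, Ppard and Pparg, the gene of their shared partner RXR alpha (Rxra), the LXR genes Nr1h3 (LXR alpha) and Nr1h2 (LXR beta), and the target genes Cpt1a, Pdk4 and Angptl4. Each was found by its symbol in every library, and the identifiers given below are those of the files. Positions are from GENCODE vM21 on GRCm38, and all 9 genes are protein coding.

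The tissue was the glabrous hind paw skin of wild-type C57BL/6J mice, from which the epidermis was peeled after dispase digestion and dissociated with TrypLE. Mice began at 6 to 8 weeks of age on a regular diet (RD, 11% fat) or a high-fat diet (HFD, 42% fat), stayed on it for 10 weeks and were 16 to 18 weeks old when sampled, with no drug given to any group. Each of the 4 groups (male RD, male HFD, female RD, female HFD) held 3 mice with 1 droplet library each, in which a unique molecular identifier (UMI) marks each captured transcript. The 12 libraries held 134449247 to 194673581 UMIs, and 126375 of 140392 barcodes passed the cell filters.

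PPARs and LXRs are transcription factors that bind DNA as pairs with an RXR. When a lipid ligand enters the receptor, corepressors leave and coactivators are recruited. PPAR alpha drives fatty acid oxidation in liver and muscle, PPAR delta is the widespread form and is known in skin for keratinocyte differentiation and barrier repair, and PPAR gamma drives fat storage in adipocytes and is required for sebaceous glands. LXRs control cholesterol efflux and lipid synthesis. Cpt1a brings long-chain fatty acids into mitochondria, Pdk4 shuts off pyruvate oxidation, and Angptl4 is a secreted inhibitor of lipoprotein lipase.

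The promoters are shown because the receptors bind repeats of a common core, AGGTCA, so its presence near a member's start can be read directly. RefSeq's GRCm38.p6 table gave 12 windows of 250 bases before a transcript start for 8 members, and Angptl4 was not among them. The core, read on either strand, lay in 4 of the 12 windows, which belong to 3 members, and in 14.02% of the 32851 mouse promoter windows of the same length. Copies of it in the same direction with 1 base of any kind between them, the arrangement called DR1 and bound by PPARs, lay in 0.0335% of all windows on either strand, and copies with 4 bases between them, called DR4 and bound by LXRs, in 0.0152%. Both of these contain the core, and 0 member windows held either. A match is only a run of letters. The Pparg stretches overlap exons of annotated transcripts, and those of Rxra and Cpt1a overlap none. The 30-base stretches around each core follow, 5′ to 3′ on the gene's strand, with the core or its reverse complement TGACCT in capitals.

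Pparg, chr6:115361104-115361133, core starting 28 bases before the transcript start: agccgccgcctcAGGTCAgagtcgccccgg

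Pparg, chr6:115362319-115362348, core starting 9 bases before the transcript start: ttttatataagggacgcgaggAGGTCAaga

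Rxra, chr2:27709193-27709222, core starting 87 bases before the transcript start: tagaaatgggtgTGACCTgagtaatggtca

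Rxra, chr2:27709232-27709261, core starting 48 bases before the transcript start: gggtggcaggaaAGGTCAgtcactctctgt

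Cpt1a, chr19:3323195-3323224, core starting 94 bases before the transcript start: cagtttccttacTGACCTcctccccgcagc

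Pparg and Pdk4 had most of their UMIs in 1 cell class, as the values further on give, so an upstream stretch of each gene that no annotated exon covers is printed too. They are the window of the third Pparg start, on the plus strand, and a stretch before the start of Pdk4, on the minus strand, and neither holds a core.

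Pparg, chr6:115421816-115422065: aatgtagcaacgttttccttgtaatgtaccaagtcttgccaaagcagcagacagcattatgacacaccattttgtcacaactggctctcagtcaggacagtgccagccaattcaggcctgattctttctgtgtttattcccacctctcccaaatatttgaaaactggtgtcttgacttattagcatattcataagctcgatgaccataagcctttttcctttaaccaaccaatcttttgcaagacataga

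Pdk4, chr6:5496310-5496528: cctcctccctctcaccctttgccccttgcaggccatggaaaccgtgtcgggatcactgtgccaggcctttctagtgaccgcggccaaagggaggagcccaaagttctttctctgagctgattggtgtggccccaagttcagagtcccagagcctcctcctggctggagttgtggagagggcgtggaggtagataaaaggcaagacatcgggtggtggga

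Cells were clustered within each sex without the 9 genes, and clusters were named from markers. A cluster name therefore means cells like that type. The classes were Langerhans cell-like (LC-like) cells (1345 in males, 2125 in females), T cell-like cells (191 and 270), and 5 keratinocyte stages, namely basal (15254 and 16418), proliferating (9749 and 11320), suprabasal (27301 and 27869), terminally differentiated (3855 and 1275) and migratory (4452 and 4896), the last led by Krt79 and Defb6. Levels are counts per 1000000 UMIs (CPM) of a class summed within a library. Male counts came from an earlier Cell Ranger version than female counts according to the file headers, so sex and software cannot be told apart and levels are never compared between them. Fewer expressing cells and less RNA per cell cannot be told apart in such sums. The 66 pairs of libraries shared 15 to 70 barcodes, at most 0.564% of the smaller library, and sex-linked transcripts matched the sex label in 12 of 12 libraries.

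The order of the 7 classes was tested within libraries, in 54 pairs of neighbouring classes, by a two-sided exact sign-flip permutation test with Benjamini-Hochberg adjustment over the 54. For 12 libraries its smallest p is 0.000488. The ranks come from the same values as the tests. Within 1 sex 6 libraries allow no p below 0.03125, so that a pair could pass the adjustment only if most of the 54 pairs reached that value. Of the 54 pairs, 14 passed. For 4 members, Pparg, Pdk4, Angptl4 and Rxra, the highest class stood above the next.

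Pparg (ENSMUSG00000000440, chr6:115360951-115490399, plus strand) had its highest level in the migratory class, and most of its UMIs lay in a subcluster of that class described below. In migratory cells it measured 4.21, 1.82 and 8.45 CPM in the male RD libraries and 8.69, 4.70 and 8.22 CPM in the male HFD libraries. The female RD libraries had 7.14, 11.8 and 9.31 CPM and the female HFD libraries 10.3, 5.12 and 16.1 CPM. Every library thus had Pparg in this class, with a wider spread in the male RD and female HFD groups than in the other two. The proliferating class came next, at 0.132 ± 0.110 CPM in males and 0.492 ± 0.242 CPM in females (SD, n = 6), with a mean migratory minus proliferating difference of 2.66 ± 0.63 (SD) on the log2(CPM + 1) scale, above 0 in 12 of 12 libraries (adjusted p = 0.00330). Of all 283 Pparg UMIs in male cells, 239 were in migratory cells (84.5%, exact 95% interval 79.7 to 88.5%), which made up 7.16% of cells. In females it was 447 of 630 (71.0%, 67.2 to 74.5%) from 7.62% of cells. Such intervals, here and below, cover counting error only.

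Ppara (ENSMUSG00000022383, chr15:85734983-85802819, plus strand) had its highest class means in migratory and basal cells and lower ones in the layers above. In males it measured 1.53 ± 0.716 CPM in migratory, 1.35 ± 0.357 in basal, 0.833 ± 0.181 in proliferating and 0.169 ± 0.0844 CPM in suprabasal cells. The female values were 11.7 ± 2.70, 9.82 ± 1.89, 5.88 ± 0.912 and 3.35 ± 1.04 CPM in the same order (SD, n = 6 each). Migratory and basal cells did not differ beyond their spread (adjusted p = 0.428, exact permutation test). The migratory means rest in part on the Scd1 subcluster described below. Without it migratory cells had 0.775 ± 0.388 CPM in males and 7.50 ± 2.77 CPM in females, below the basal means, and no test was made of this. Basal cells stood above proliferating cells, with a mean basal minus proliferating difference of 0.50 ± 0.29 (SD) on the log2(CPM + 1) scale, above 0 in 11 of 12 libraries (adjusted p = 0.00527). Proliferating stood above suprabasal cells, with a mean proliferating minus suprabasal difference of 0.66 ± 0.17 (SD) on the log2(CPM + 1) scale, above 0 in 12 of 12 libraries (adjusted p = 0.00330). Suprabasal, LC-like and terminally differentiated cells were not separated from one another in that order. Within the basal class of females, the cluster led by Tspear and Dlk2 had 13.9 CPM and the one led by Mmp3 and Has2 5.98 CPM. The female suprabasal class was as uneven, with 7.26 CPM in the cluster led by 1200007C13Rik and Mettl7a1, above that second basal cluster and the proliferating class, and 1.74 to 3.51 CPM in the other 3. These are values without a test.

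Ppard (ENSMUSG00000002250, chr17:28232700-28301474, plus strand) was present in every class and library apart from 2 shallow male T cell-like sums at 0. Over the 12 libraries its keratinocyte order ran from suprabasal and migratory down to proliferating, basal and terminally differentiated cells, and the lower 3 were ordered differently in each sex. Suprabasal cells had 18.2 ± 0.475 CPM in males and 32.9 ± 2.44 CPM in females, and migratory cells 18.0 ± 1.62 and 33.4 ± 2.96 CPM (SD, n = 6), which were not distinguishable (adjusted p = 1.00, exact permutation test). Migratory stood above proliferating cells, with a mean migratory minus proliferating difference of 0.52 ± 0.23 (SD) on the log2(CPM + 1) scale, above 0 in 12 of 12 libraries (adjusted p = 0.00330). Proliferating cells had 10.95 ± 0.901 CPM in males and 25.7 ± 1.86 CPM in females, basal cells 9.81 ± 1.05 and 26.5 ± 0.580 CPM, and terminally differentiated cells 10.8 ± 1.28 and 15.5 ± 3.97 CPM (SD, n = 6 each). Neither proliferating against basal (adjusted p = 0.506) nor basal against terminally differentiated cells (adjusted p = 0.188) was separated in the exact permutation test, which takes both sexes together. In females every basal library (25.7 to 27.3 CPM) lay above every terminally differentiated library (11.5 to 21.3 CPM). In males the ranges overlapped, at 8.34 to 11.2 CPM in basal and 8.61 to 12.6 CPM in terminally differentiated cells. Inside the suprabasal class the level was uneven. In males the cluster led by Serpinb3a, a marker of the upper layers, had 24.3 CPM, while those led by Krt9 and Bco1 had 10.2 and 15.9 CPM. The female Serpinb3a cluster had 50.9 CPM against 19.6 to 27.0 CPM in the other 3 suprabasal clusters. These are means of 6 libraries, and no test was made between clusters.

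Rxra (ENSMUSG00000015846, chr2:27676440-27762957, plus strand), the partner of all the receptors above, was high in all keratinocyte stages up to the last. Suprabasal cells had 45.3 ± 3.82 CPM in males and 34.7 ± 3.75 in females, and stood above migratory cells, with a mean suprabasal minus migratory difference of 0.19 ± 0.16 (SD) on the log2(CPM + 1) scale, above 0 in 11 of 12 libraries (adjusted p = 0.0168). With mitochondrial UMIs allowed up to 10% this lead was lost (adjusted p = 0.0744). Migratory, basal and proliferating cells formed a plateau of 37.7 ± 3.15, 38.6 ± 3.07 and 38.0 ± 4.63 CPM in males and 32.0 ± 3.91, 30.9 ± 3.42 and 30.2 ± 2.82 CPM in females (SD, n = 6 each). Terminally differentiated cells were lowest of the keratinocytes, at 16.7 ± 3.25 and 9.85 ± 1.33 CPM, and lay below LC-like cells, with a mean LC-like minus terminally differentiated difference of 0.96 ± 0.29 (SD) on the log2(CPM + 1) scale, above 0 in 12 of 12 libraries (adjusted p = 0.00330). LC-like sums carry keratinocyte RNA, estimated at 17.7 CPM of Rxra in males and 8.35 CPM in females. The LC-like cells low in keratin, described below, had 27.8 ± 5.63 and 15.3 ± 3.72 CPM, and the test was not repeated in them.

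The LXR genes differed in level. Nr1h2 (ENSMUSG00000060601, chr7:44549616-44553951, minus strand) was present everywhere, at 22.8 ± 2.31 CPM in male and 21.5 ± 1.71 CPM in female basal cells, with migratory, proliferating and suprabasal cells between 22.7 and 26.6 CPM in males and 23.0 and 25.4 CPM in females. Terminally differentiated cells had the lowest values, 10.1 ± 1.63 and 8.28 ± 2.85 CPM, with a mean basal minus terminally differentiated difference of 1.22 ± 0.44 (SD) on the log2(CPM + 1) scale, above 0 in 12 of 12 libraries (adjusted p = 0.00330). Nr1h3 (ENSMUSG00000002108, chr2:91184061-91202834, minus strand) was sparse, with 139 UMIs in all male and 254 in all female cells. Its class means stayed under 1 CPM in both sexes, and only the step from proliferating to suprabasal cells passed, with a mean proliferating minus suprabasal difference of 0.18 ± 0.16 (SD) on the log2(CPM + 1) scale, above 0 in 11 of 12 libraries (adjusted p = 0.0198).

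Of the target genes, Cpt1a (ENSMUSG00000024900, chr19:3322334-3385733, plus strand) was even over basal, proliferating and migratory cells, at 26.1 ± 1.80, 26.5 ± 2.81 and 26.1 ± 3.33 CPM in males and 30.2 ± 2.68, 30.5 ± 1.57 and 28.7 ± 4.11 CPM in females (SD, n = 6 each). Suprabasal cells had 20.003 ± 1.68 and 29.3 ± 3.39 CPM. Within them Cpt1a was lowest in the Serpinb3a clusters that had the highest Ppard, at 14.98 CPM in males and 21.5 CPM in females, against 21.8 to 26.3 and 29.2 to 40.7 CPM in the other suprabasal clusters. The terminally differentiated class had 4.94 ± 2.24 and 5.77 ± 1.51 CPM and lay below LC-like cells, with a mean LC-like minus terminally differentiated difference of 1.40 ± 0.53 (SD) on the log2(CPM + 1) scale, above 0 in 12 of 12 libraries (adjusted p = 0.00330). LC-like sums carry keratinocyte RNA, estimated below at 9.31 CPM of Cpt1a in males and 7.55 CPM in females, which alone exceeds these levels. The LC-like cells low in keratin had 10.4 ± 4.31 and 13.2 ± 3.29 CPM, and the test was not repeated in them.

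Pdk4 (ENSMUSG00000019577, chr6:5483351-5496309, minus strand) followed the same class as Pparg. Migratory cells had 8.42, 6.30 and 17.5 CPM in male RD, 15.3, 16.1 and 16.4 CPM in male HFD, 3.43, 16.5 and 6.26 CPM in female RD and 8.29, 4.98 and 19.2 CPM in female HFD libraries. The 3 male HFD libraries were close together and the other groups were wide. Proliferating cells had 0.282 ± 0.175 CPM in males and 0.892 ± 1.09 CPM in females, the latter raised by HFD replicate 2 (2.83 CPM) and RD replicate 2 (1.54 CPM), while the other 4 female libraries lay between 0.106 and 0.489 CPM. Migratory stood above proliferating cells, with a mean migratory minus proliferating difference of 2.94 ± 1.03 (SD) on the log2(CPM + 1) scale, above 0 in 12 of 12 libraries (adjusted p = 0.00330). Migratory cells held 520 of 773 male Pdk4 UMIs (67.3%) and 431 of 660 female ones (65.3%).

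Angptl4 (ENSMUSG00000002289, chr17:33773750-33781830, minus strand) was also highest in migratory cells, with 9.57, 9.62 and 16.8 CPM in male RD, 18.7, 17.2 and 18.6 CPM in male HFD, 3.57, 4.38 and 7.02 CPM in female RD and 8.09, 6.73 and 6.18 CPM in female HFD libraries. Basal cells had 2.27 ± 0.568 CPM in males and 1.98 ± 0.442 CPM in females. Migratory stood above basal cells, with a mean migratory minus basal difference of 1.74 ± 0.76 (SD) on the log2(CPM + 1) scale, above 0 in 12 of 12 libraries (adjusted p = 0.00330). Suprabasal cells had 0.205 ± 0.0687 and 0.348 ± 0.122 CPM. Migratory cells held 46.9% of the 1249 male UMIs and 26.8% of the 1025 female UMIs of the gene. In females the larger proliferating and basal classes, with 17.6% and 25.6% of cells, held more of them, 29.8% and 29.4%.

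**Figure D1:**
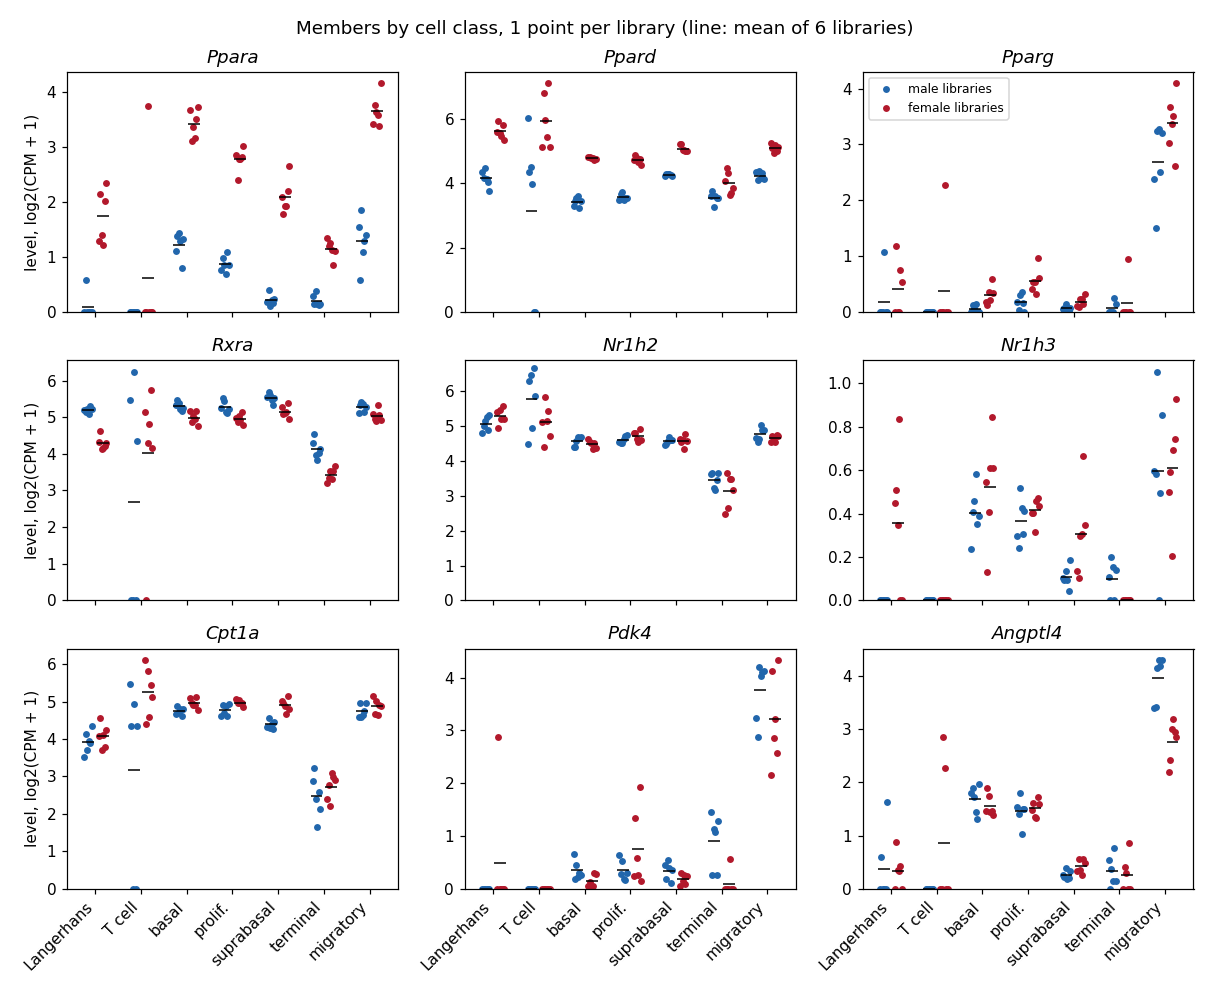
Level of each member, as log2(CPM + 1), in 7 cell classes, with 1 point per library (6 male, 6 female) and a line at the mean of 6. Pparg, Pdk4 and Angptl4 are highest in the migratory class, while Rxra, Nr1h2 and Cpt1a are lowest of the keratinocyte stages in terminally differentiated cells.

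The migratory level of Pparg came from few cells. Clustered again on their own, migratory cells held a subcluster of 908 male and 882 female cells led by Scd1 and Elovl6, which make and lengthen monounsaturated fatty acids. It was picked out after its values were seen, so its levels are a description without a test. Scd1 measured 742 ± 343 CPM there in males, against 50.8 ± 4.23 CPM in other migratory cells (SD, n = 6). Only 2 of the 6 sebocyte markers listed passed the naming rule, so the subcluster stays unnamed. With mitochondrial UMIs allowed up to 10%, a cluster with 5 of these markers separated and held 84.1% of male and 47.3% of female Pparg UMIs.

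Pparg measured 21.4, 9.84 and 35.7 CPM in the Scd1 subcluster of male RD, 33.7, 30.01 and 31.6 CPM in male HFD, 53.5, 72.4 and 52.5 CPM in female RD and 50.6, 25.8 and 84.7 CPM in female HFD libraries. The other migratory cells had 0.847 ± 0.649 CPM in males and 1.54 ± 0.541 CPM in females. Its 214 male UMIs in the subcluster were 75.6% of all (70.2 to 80.5%), from 1.46% of cells. In females 391 UMIs were 62.1% (58.1 to 65.9%), from 1.37% of cells. Pdk4 had 52.0 ± 22.5 CPM in males and 47.0 ± 38.0 CPM in females there, against 4.66 ± 1.96 and 2.75 ± 1.49 CPM in other migratory cells. The subcluster held 48.8% of male and 50.3% of female Pdk4 UMIs.

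In the same cells Ppara measured 4.79 ± 3.04 CPM in males and 36.4 ± 12.3 CPM in females, against 0.775 ± 0.388 and 7.50 ± 2.77 CPM in other migratory cells. Angptl4 had 36.3 ± 10.8 and 14.5 ± 5.87 CPM, against 9.69 ± 3.22 and 4.45 ± 1.46 CPM. Over the 12 libraries the mean difference from other migratory cells, on the log2(CPM + 1) scale, was 4.17 for Pparg, 3.29 for Pdk4, 1.85 for Ppara and 1.63 for Angptl4. Each of these 4 was higher in 12 of 12 libraries. Of the other 5 members, Rxra was higher in 10 libraries, Nr1h3 in 7, Cpt1a in 5, Ppard in 2 and Nr1h2 in 1.

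Angptl4 was not limited to the Scd1 subcluster. In a subcluster whose leading genes in both sexes included Aspn and Lgr5 it measured 35.6 CPM in males and 16.1 CPM in females, with Pparg at 0.363 and 0.101 CPM. In a male subcluster of 313 cells led by mitotic genes Angptl4 was at 28.6 CPM, with Pparg at 5.31 CPM. Summed markers of adipocytes reached at most 4.60 CPM in any library's Scd1 subcluster, while the 6 sebocyte markers summed to 767 to 1803 CPM in male RD, 1089 to 2222 in male HFD, 772 to 4423 in female RD and 676 to 3017 CPM in female HFD libraries. The subcluster was taken as the migratory one that scored highest on the sebocyte markers, so their high sum was set by that choice. The part of sebocyte-like or adipocyte-like cells in the members' levels was not tested. Scd1 is itself both a sebocyte marker and an LXR target in the lists used here.

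**Figure D2:**
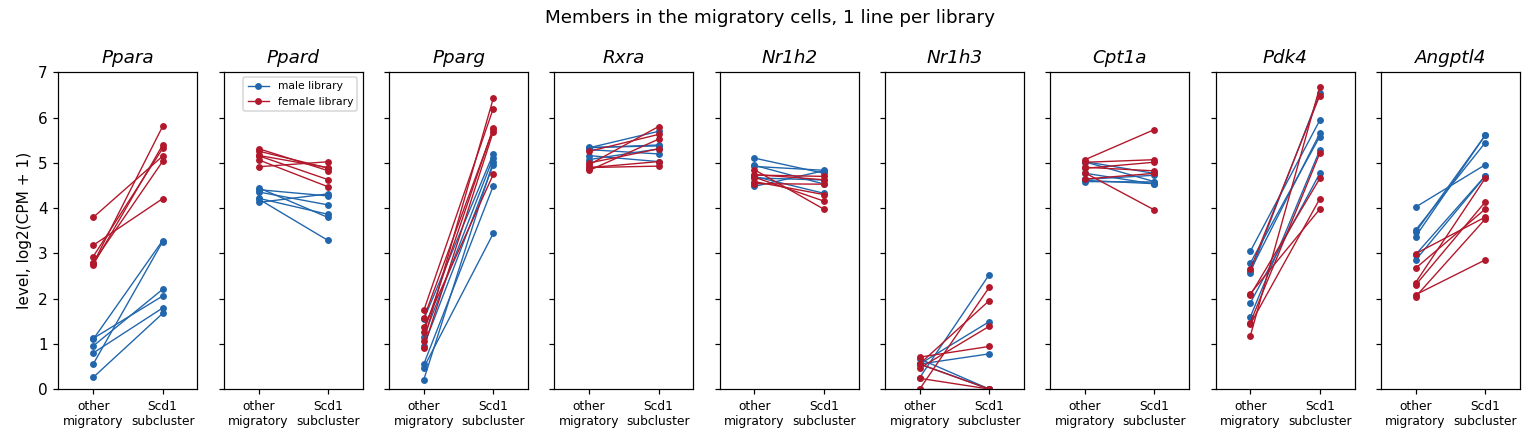
Levels of the members, as log2(CPM + 1), in the Scd1 subcluster and in the other migratory cells, with a line joining the values of 1 library (12 libraries). Pparg, Pdk4, Ppara and Angptl4 are higher in the subcluster in 12 of 12 libraries.

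In LC-like cells, the antigen-presenting cells of the epidermis, 4 members had a level in every library. Ppard measured 19.4, 17.1 and 21.1 CPM in male RD, 16.6, 15.4 and 12.5 in male HFD, 47.3, 60.9 and 46.8 in female RD and 43.3, 55.7 and 39.7 CPM in female HFD libraries. Nr1h2 ranged from 26.7 to 38.8 CPM in males and 29.6 to 46.5 CPM in females, above the migratory class, with a mean LC-like minus migratory difference of 0.47 ± 0.29 (SD) on the log2(CPM + 1) scale, above 0 in 11 of 12 libraries (adjusted p = 0.00527). Rxra ranged from 33.2 to 38.5 and 16.7 to 23.7 CPM, below proliferating cells (35.6 ± 1.84 against 38.0 ± 4.63 CPM in males and 18.7 ± 2.60 against 30.2 ± 2.82 CPM in females, SD, n = 6 each), with a mean proliferating minus LC-like difference of 0.38 ± 0.38 (SD) on the log2(CPM + 1) scale, above 0 in 10 of 12 libraries (adjusted p = 0.0203). Cpt1a ranged from 10.5 to 19.4 and 12.04 to 22.4 CPM. Nr1h3 and Pdk4 had 0 UMIs among 8536589 in male LC-like cells, where 3 UMIs, the floor taken for a count of 0, are 0.351 CPM and the exact 95% upper limit is 0.432 CPM. All 15 female Pdk4 UMIs in LC-like cells came from RD replicate 2.

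LC-like cells also carried keratin RNA, so the levels were set beside it. The 4 keratins used stood at 33.3 to 60.0% of the keratinocyte level in male and 18.1 to 34.0% in female LC-like cells. In those whose 4 keratins (Krt1, Krt5, Krt10, Krt14) made up at most 1% of UMIs they stood at 1.51 to 3.74% and 4.51 to 7.61%. In these keratin-low cells Rxra was at 27.8 ± 5.63 CPM in males and 15.3 ± 3.72 CPM in females, and Cpt1a at 10.4 ± 4.31 and 13.2 ± 3.29 CPM, both lower than over all LC-like cells. Ppard was at 14.9 ± 5.03 and 51.7 ± 10.3 CPM and Nr1h2 at 35.0 ± 5.98 and 40.5 ± 6.21 CPM. Over all LC-like cells, Ppard, Rxra and Nr1h2 lay above the level that keratinocyte RNA in proportion to the keratins would give in 6 of 6 libraries of both sexes. Cpt1a did so in 5 of 6 male libraries, at a mean of 14.5 CPM against 9.31 CPM, and in 6 of 6 female ones, at 16.3 against 7.55 CPM. In the keratin-low cells, which were chosen by the same keratins and so have a low such level, all 4 lay above it in 6 of 6 libraries of both sexes. There Ppara lay above it in 1 of 6 male libraries and in 6 of 6 female ones, at a female mean of 1.45 CPM against 0.308 CPM. That female level rests on 17 UMIs, and of the 41 Ppara UMIs in all female LC-like cells 37 lay in the subcluster that carried keratins, 4 in the one led by Ccl22 and Ccr7 and 0 in the other 2 described below. Pparg lay above it in 1 male and 3 female libraries, Angptl4 in 1 and 2, Nr1h3 in 0 and 4 (0.307 CPM in females, from 4 UMIs) and Pdk4 in 0 and 1.

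The female LC-like subclusters had unlike values of Ppard and Rxra. The subcluster led by Ccl22 and Ccr7, the latter the receptor that guides cells to lymph nodes, had 61.2 CPM of Ppard and 12.4 CPM of Rxra. The one named resting had 34.4 and 8.92 CPM, the keratin-carrying one 43.6 and 29.9 CPM, and the fourth, led by Klf2, Ccl4 and Ccl3, 43.9 and 25.0 CPM. No test was made between them. Female keratinocytes had 32.2 ± 3.11 CPM of Rxra, and the part of their RNA in the keratin-carrying subcluster was not tested. In T cell-like cells the depth was low, and 3 UMIs in a library were worth 44.8 to 76.2 CPM in males and 11.5 to 34.0 CPM in females. Nr1h2 was found in all 12 libraries, at 21.5 to 102 CPM in males and 20.1 to 55.6 CPM in females. Female Ppard ranged from 33.8 to 137 CPM. Nr1h3 and Pdk4 had 0 UMIs in either sex. T cell-like ranks in the order of classes are not resolved at this depth, and no pair with T cell-like cells passed.

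The genes whose levels over the classes were most like those of a member were sought among 8079 genes, by Pearson's r over 14 points (7 classes in each sex, centred within sex), for the members above 5 CPM. The points share libraries, so r is a description. For Ppard they were Fam174a, Dnajb2 and Vps13d (r from 0.932 to 0.935). For Rxra they were Tgfbrap1, Fech and Eif3i (r from 0.978 to 0.985). For Nr1h2 they were Atp5md, Cdk12 and Tor1a (r from 0.981 to 0.985). For Cpt1a they were Bysl, Trappc10 and Slc25a37 (r from 0.979 to 0.983). The other 5 members were below 5 CPM.

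The diet comparison asked whether HFD changed the members within a class, in males and in females separately. No member passed in any class. Counts of each class, and of all keratinocytes together, were tested over all genes with edgeR's quasi-likelihood test and Benjamini-Hochberg adjustment. In males 45 results of a member in a class passed the filter on low counts, 0 had an adjusted p below 0.05 and 7 an unadjusted p below 0.05. The smallest adjusted p was 0.203, for Cpt1a in terminally differentiated cells. Over all genes 0.00483% of results passed and 9.9% had an unadjusted p below 0.05. In females it was 0 of 49, with 6 at an unadjusted p below 0.05 and a smallest adjusted p of 0.0868, against 1.54% passing and 16.6% at an unadjusted p below 0.05 over all genes. The difference between the diet effects of the sexes gave 0 of 49, 8 at an unadjusted p below 0.05 and a smallest adjusted p of 0.0785, against 0.519% and 13.2% over all genes. DESeq2 called 0 members in males, 0 in females and 2 for the difference between the sexes, where it called 0.753%, 3.83% and 2.67% of all gene results.

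The median 95% interval reached 0.374 (males) and 0.376 (females) on the log2 scale to each side of the estimate, and 0.596 for the difference between sexes. In simulated counts of the same depth, 80.2% of genes changed 2-fold were found in male and 71.6% in female migratory cells, and 44.9% and 69.4% in LC-like cells. In terminally differentiated cells it was 58.7% in males, 26.4% in females and 2.33% for the difference between the sexes. These rates are over the 200 changed genes of a class and are not rates for single members, whose own intervals are given below. Benjamini-Hochberg adjustment asks for a smaller p where fewer genes change. The male migratory simulation gave 196 calls and the data 0, so these rates can be too high for a member changed alone. The RD and HFD libraries did not overlap in 11 male and 9 female results, where 15.5% and 21.7% of all gene results did so. In 6 male and 4 female results every HFD library lay above every RD library, as did 4.49% and 13.5% of all gene results. In T cell-like cells 0 members passed the filter.

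**Figure D3:**
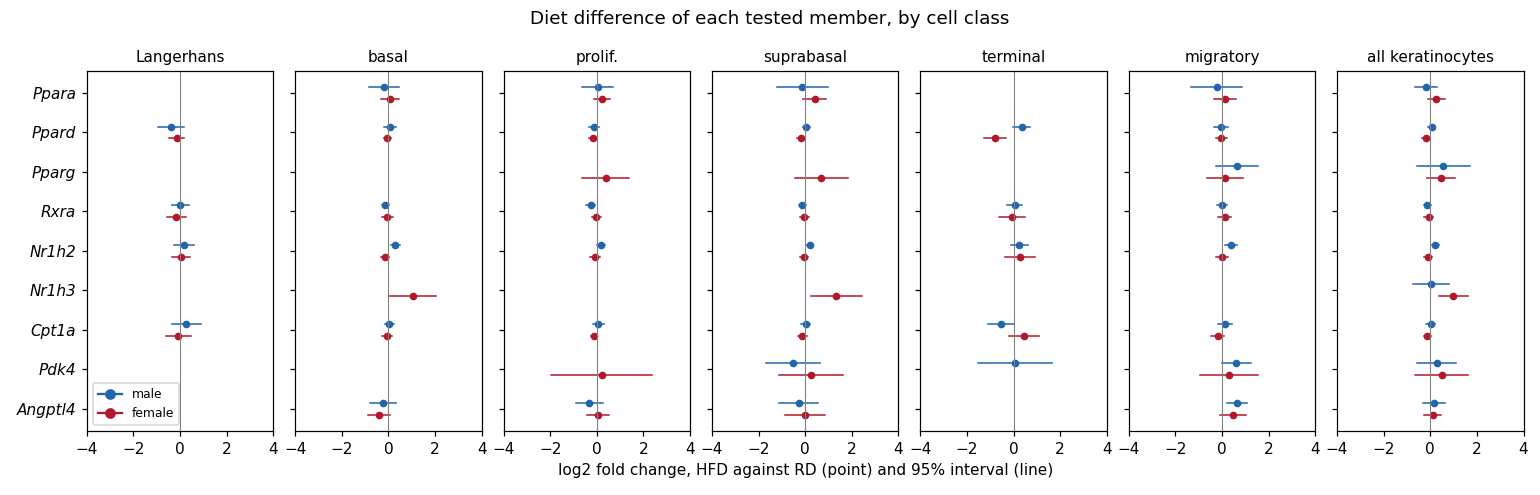
Estimated log2 fold change of HFD against RD (point) with its 95% interval (line) for every member that passed the filter, in LC-like cells, 5 keratinocyte stages and all keratinocytes, in males and females. No estimate has an adjusted p below 0.05, and the lines show how far the data allow a change in either direction.

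In migratory cells of males the mean levels of Pparg, Pdk4 and Angptl4 were all higher on HFD. Angptl4 went from 11.98 ± 4.13 to 18.2 ± 0.874 CPM (SD, n = 3) without overlap, a log2 fold change of 0.65 (95% interval 0.22 to 1.08), which did not pass (edgeR adjusted p = 0.637). With no filter on low counts it passed (adjusted p = 0.0386), where 1915 male gene results passed, against 4 with the filter. Pdk4 went from 10.7 ± 5.96 to 16.0 ± 0.585 CPM, 0.62 (95% interval -0.0041 to 1.25), and Pparg from 4.83 ± 3.36 to 7.20 ± 2.18 CPM, 0.64 (95% interval -0.27 to 1.55), with overlap in both (edgeR adjusted p = 0.888 and 0.949). Both moved with 1 library, to 0.37 and 0.28 without RD replicate 2 and to 1.11 and 1.23 without RD replicate 3. In females the log2 fold changes were 0.47 (95% interval -0.09 to 1.04) for Angptl4, 0.30 (95% interval -0.93 to 1.54) for Pdk4 and 0.14 (95% interval -0.62 to 0.91) for Pparg. That of Angptl4 was 0.27 without RD replicate 1 and 0.79 without RD replicate 3, and those of Pdk4 and Pparg changed sign with 1 library left out. In female basal cells Angptl4 went the other way without overlap, with a log2 fold change of -0.42 (edgeR adjusted p = 0.382). The difference between the sexes in migratory cells did not pass for any of the 3 (edgeR adjusted p = 0.932, 0.940 and 0.844).

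The share of migratory cells in the Scd1 subcluster, which held most Pparg UMIs, varied with the libraries. It was 18.0 to 18.8% in male RD, 14.1 to 26.8% in male HFD, 14.2 to 16.9% in female RD and 17.0 to 22.5% in female HFD. Without these cells, an alternative chosen after seeing the data, the log2 fold change of Angptl4 was 0.71 in males and 0.62 in females. That of Pdk4 was 0.47 in males and -0.69 in females, and that of Pparg in females -0.70, Pparg not passing the filter in males. The stress and dissociation genes, among them Fos and Hspa1a, summed to 12701 to 14472 CPM in male RD and 12153 to 13244 CPM in male HFD migratory cells, and to 10545 to 11691 and 11163 to 11417 CPM in the female groups. The 4 fibroblast markers summed to 15.7 to 29.3 CPM in male RD, 12.7 to 111 in male HFD, 12.4 to 20.4 in female RD and 12.6 to 16.9 CPM in female HFD. The 6 sebocyte markers summed to 216 to 446, 309.8 to 645, 205 to 716 and 204 to 668 CPM in the same order. Their part in the differences was not tested.

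**Figure D4:**
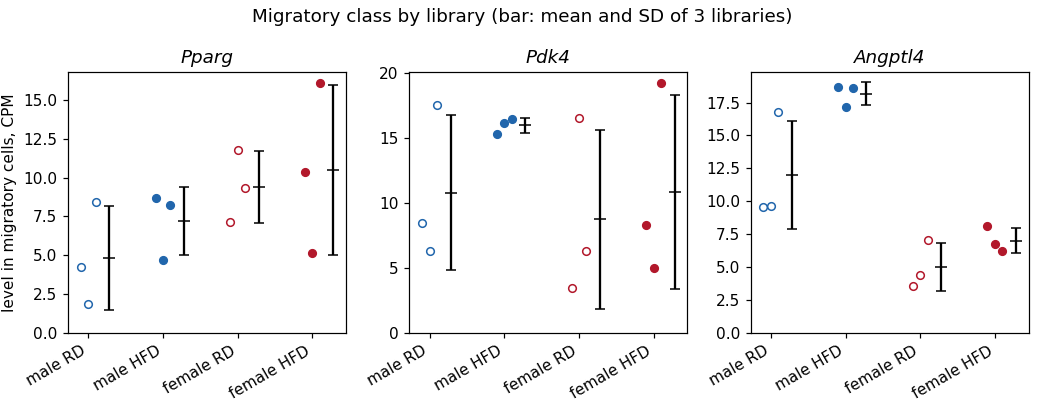
Level in CPM of Pparg, Pdk4 and Angptl4 in the migratory class of each library by group, with the mean and SD of 3 libraries. Male HFD libraries lie above all male RD libraries for Angptl4, while the groups of Pparg and Pdk4 overlap in both sexes.

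Nr1h2, the LXR form found in all classes, was higher in every male HFD library than in every male RD library in 4 keratinocyte stages, without passing the test. Over all genes 4.49% of male results lay this way, and 15.5% did not overlap in either direction. These shares pool the 8 class sums on plain CPM and are not shares within 1 stage. In basal cells Nr1h2 measured 20.03, 19.99 and 22.6 CPM on RD and 24.7, 24.5 and 25.0 CPM on HFD, 0.30 (95% interval 0.12 to 0.48) on the log2 scale (edgeR adjusted p = 0.569). The others were proliferating, suprabasal and migratory cells, with male log2 fold changes of 0.19, 0.19 and 0.38, and none passed (edgeR adjusted p = 0.499, 0.466 and 0.606). In all keratinocytes the change was 0.22 (95% interval 0.07 to 0.37, edgeR adjusted p = 0.355). In females every HFD library lay below every RD library in basal cells, with 23.7, 22.1 and 22.1 CPM on RD and 19.3, 22.0 and 19.5 CPM on HFD, a log2 fold change of -0.16 (95% interval -0.34 to 0.01, edgeR adjusted p = 0.370). The female groups overlapped elsewhere, with log2 fold changes of -0.09 (95% interval -0.31 to 0.13) in proliferating, -0.06 (95% interval -0.24 to 0.12) in suprabasal, 0.01 (95% interval -0.23 to 0.25) in migratory and 0.28 (95% interval -0.38 to 0.94) in terminally differentiated cells. In all female keratinocytes it was -0.11 (95% interval -0.27 to 0.05). Male terminally differentiated cells had 0.24 after TMM scaling (95% interval -0.13 to 0.62), with overlap. Their plain mean was lower on HFD, at 10.4 ± 1.84 CPM on RD and 9.84 ± 1.73 CPM on HFD (SD, n = 3). The male minus female difference in basal cells was 0.43 (95% interval 0.20 to 0.66, edgeR adjusted p = 0.192). In all keratinocytes it was 0.31 (95% interval 0.11 to 0.52, edgeR adjusted p = 0.111), which passed with DESeq2 (adjusted p = 0.0303) and was 0.20 without scaling factors (edgeR adjusted p = 0.350). The classes share libraries and are not separate evidence.

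Nr1h3 was the member nearest to a call in females. In all female keratinocytes it measured 0.230, 0.156 and 0.238 CPM on RD and 0.339, 0.594 and 0.372 CPM on HFD, without overlap, a log2 fold change of 0.99 (95% interval 0.36 to 1.61, edgeR adjusted p = 0.0868). Suprabasal cells had 1.33 (95% interval 0.23 to 2.42, edgeR adjusted p = 0.156). Basal cells had 1.03 (95% interval 0.03 to 2.04, edgeR adjusted p = 0.325). Suprabasal cells had 0.87 without HFD replicate 2 and basal cells 0.66 without RD replicate 2, the lowest values with 1 library left out, and the highest were 1.97 and 1.48. These levels rest on 248 UMIs in all keratinocytes, 94 in suprabasal and 74 in basal cells of the 6 female libraries. In males the change over all keratinocytes was 0.04 (95% interval -0.74 to 0.82) and the groups were 0.139, 0.155 and 0.264 CPM on RD and 0.177, 0.117 and 0.243 CPM on HFD. Between the sexes the difference was -0.97 (95% interval -1.96 to 0.02, edgeR adjusted p = 0.313).

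In terminally differentiated cells of females Ppard measured 15.9, 21.3 and 19.0 CPM on RD and 11.5, 12.1 and 13.3 CPM on HFD. The groups did not overlap and the log2 fold change was -0.79 (95% interval -1.27 to -0.31, edgeR adjusted p = 0.473). In males the values were 11.1, 12.6 and 8.61 and 11.1, 10.6 and 10.6 CPM, with overlap and equal means, and the log2 fold change after TMM scaling was 0.35 (95% interval -0.03 to 0.72). The male minus female difference was 1.23 (95% interval 0.69 to 1.77, edgeR adjusted p = 0.0785). It passed with DESeq2 (adjusted p = 0.00345), with no filter on low counts (0.0211) and without female RD replicate 2 (0.0183). Its size depended on the scaling. Without scaling factors, an alternative chosen after seeing the data, the difference was 0.60 (edgeR adjusted p = 0.237). The median log2 fold change of all genes in this class was then -0.39 in males and 0.20 in females, and after TMM scaling it was -0.05 and 0.02. This class held 1275 female cells, with 30 to 83 Ppard UMIs per library.

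In all female keratinocytes Ppard went from 31.1 ± 1.65 to 28.3 ± 0.325 CPM (SD, n = 3) without overlap, a log2 fold change of -0.19 (95% interval -0.34 to -0.05, edgeR adjusted p = 0.128), and in males the change was 0.05 (95% interval -0.11 to 0.22).

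Cpt1a in terminally differentiated cells was opposite in direction in the sexes, and no test of it passed. It measured 6.40, 8.41 and 4.31 CPM on RD and 2.13, 5.02 and 3.36 CPM on HFD in males, with overlap, a log2 fold change of -0.52 (95% interval -1.08 to 0.03, edgeR adjusted p = 0.203). In females it measured 4.27, 5.82 and 3.67 CPM on RD and 7.51, 6.86 and 6.48 CPM on HFD, without overlap, 0.45 (95% interval -0.19 to 1.09, edgeR adjusted p = 0.713). The male minus female difference was -0.89 (95% interval -1.69 to -0.08, edgeR adjusted p = 0.169). Without scaling factors the male change was -0.87, the female one 0.62 and the difference -1.49 (edgeR adjusted p = 0.109), and with the doublets removed the difference was -1.90 (adjusted p = 0.536). These values rest on 14 to 84 Cpt1a UMIs per library. Over all keratinocytes Cpt1a had 0.02 (95% interval -0.18 to 0.22) in males and -0.13 (95% interval -0.29 to 0.04) in females.

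Rxra lay lower in every male HFD library than in every male RD library in basal, proliferating and suprabasal cells, without passing. The log2 fold changes were -0.14, -0.26 and -0.12 (edgeR adjusted p = 0.830, 0.386 and 0.631), and -0.13 (95% interval -0.27 to 0.02) over all keratinocytes. Of all male gene results 15.5% did not overlap, in either direction, and the classes share libraries. In females the groups overlapped in every class where Rxra was tested, with -0.06 (95% interval -0.25 to 0.13) over all keratinocytes. For Ppara the groups overlapped in every class where it was tested, and over all keratinocytes it had -0.17 (95% interval -0.64 to 0.31) in males and 0.26 (95% interval -0.12 to 0.64) in females. In female terminally differentiated cells Ppara did not pass the filter on low counts, at 1.40 ± 0.118 CPM on RD and 1.04 ± 0.204 CPM on HFD (SD, n = 3) from 2 to 6 UMIs per library, without overlap.

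In LC-like cells the 4 members tested had log2 fold changes in males of -0.39 (95% interval -0.95 to 0.16) for Ppard, 0.01 (95% interval -0.37 to 0.40) for Rxra, 0.18 (95% interval -0.25 to 0.61) for Nr1h2 and 0.26 (95% interval -0.36 to 0.89) for Cpt1a. The female values were -0.15 (95% interval -0.50 to 0.19), -0.16 (95% interval -0.56 to 0.24), 0.03 (95% interval -0.34 to 0.41) and -0.08 (95% interval -0.61 to 0.45) in the same order. Over all LC-like cells Ppard was the member whose male groups did not overlap, all 3 HFD libraries lying below RD. In the keratin-low cells its male groups overlapped, with 9.92 to 21.3 CPM on RD and 9.24 to 17.9 CPM on HFD. There those of Rxra did not overlap, with 20.1 to 25.4 CPM on RD and 27.7 to 34.4 CPM on HFD, given as values without a test. No adjusted p over all LC-like cells was below 0.809.

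Further genes of the pathway were read from a list of 32 other PPAR targets, mostly of fatty acid oxidation, uptake and storage. Only 2 passed anywhere, both in females. They were 1 of 25 tested in suprabasal cells, where 3.08% of all genes passed, and 1 of 29 in all keratinocytes, where 3.4% did. Acot1, a fatty acyl-CoA thioesterase, measured 17.2, 15.2 and 16.7 CPM on RD and 22.2, 23.0 and 21.7 CPM on HFD in suprabasal cells, a log2 fold change of 0.40 (95% interval 0.26 to 0.55, edgeR adjusted p = 0.0220). It has close paralogs whose reads may be shared. Plin2, a coat protein of lipid droplets, measured 12.6, 12.4 and 12.2 CPM on RD and 15.1, 18.4 and 17.2 CPM on HFD in all keratinocytes, a log2 fold change of 0.38 (95% interval 0.22 to 0.54, edgeR adjusted p = 0.0314). The groups did not overlap in either case, and leaving out 1 library could remove each call. Without RD replicate 1, 2 or 3 or HFD replicate 3 the adjusted p was 0.0641 to 0.105 for Acot1 and 0.0925 to 0.141 for Plin2. With the replicate block the call of Plin2 was lost (adjusted p = 0.0969).

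In male migratory cells 21 of the 25 PPAR targets tested had a positive log2 fold change and 0 passed, with a median of 0.21 against -0.002 over all genes. Of the 25, 4 had an unadjusted p below 0.05, as did 5.61% of all genes there. The Scd1 subcluster made up 25.3, 14.1 and 26.8% of these cells in the male HFD libraries and 18.0 to 18.8% on RD, and the 6 sebocyte markers summed to 309.8 to 645 CPM on HFD and 216 to 446 CPM on RD. Their part in this shift was not tested. Migratory cells had the highest median of the male classes. In male basal cells 13 of 25 were positive (median 0.01) and in proliferating cells 11 of 25 (median -0.006), with 5 and 8 at an unadjusted p below 0.05. Suprabasal cells had 15 of 26 positive (median 0.04), terminally differentiated cells 15 of 22 (median 0.11) and LC-like cells 12 of 19 (median 0.04). In female migratory cells 17 of 28 were positive, with medians of 0.04 and 0.0017, and 3 had an unadjusted p below 0.05, as did 15% of all genes. Over all keratinocytes 19 of 29 were positive in males (median 0.08) and 18 of 29 in females (median 0.02), with 3 and 7 at an unadjusted p below 0.05, against 9.03% and 21.7% of all genes there. Of 16 LXR targets, such as the cholesterol exporters Abca1 and Abcg1, 14 were tested over all keratinocytes, with 10 positive in males (median 0.17) and 6 in females (median -0.02). In these sums 3 male and 4 female LXR targets had an unadjusted p below 0.05, against the same shares of all genes, and 0 passed in any class with edgeR. In migratory cells it was 4 of 14 in males (9 positive) and 6 of 14 in females (6 positive), against 5.61% and 15% of all genes. In LC-like cells 10 of 13 LXR targets were positive in males (median 0.23) and 7 of 14 in females (median -0.03). Of 15 partners and coregulators, among them Ncor1 and Med1, 13 were tested over all keratinocytes, with 8 positive in males and 1 in females. There 1 male and 2 female ones had an unadjusted p below 0.05, and 0 passed in any class with edgeR. Of 10 stress genes only Fos passed, in female T cell-like cells, where it went from 1191, 1237 and 1582 CPM to 596, 812 and 650.2 CPM, a log2 fold change of -0.99 (95% interval -1.38 to -0.60, edgeR adjusted p = 0.0363), where 0.293% of all genes passed. That call was lost with the doublets removed (adjusted p = 0.218), with the replicate block (adjusted p = 0.0518) and without RD replicate 2 or 3 or HFD replicate 1 or 3 (adjusted p = 0.108 to 0.199). Of 10 hypoxia genes 0 passed.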

How the data were processed

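UMI counts of 32285 genes were deposited by the authors for each of the 12 libraries, as whole numbers per gene and barcode without normalization. The 10x Chromium 3′ chemistry was used, and the reads were aligned to the mm10 transcriptome (GRCm38). The file headers name Cell Ranger 6.1.0 for males and 7.2.0 for females, while the submitters' processing notes name Cell Ranger 7.2.0 and Seurat 5.0.0. Whether intronic reads were counted is not given in the sources used here.

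The cell filters took 200 (male) or 500 (female) genes as the lower and 6000 as the upper limit, with no more than 5% of UMIs from mitochondrial genes. Doublets were scored by similarity to simulated doublets, 11658 cells (9.22%) were marked, and they were removed only in an alternative. Counts were log-normalized to 10000 per cell, and 2000 variable genes without the 9 members gave 10 principal components, which were clustered per sex (leidenalg 0.10.2, Python 3.11.15). A name needed 3 markers. Counts were then summed per class and library and tested with edgeR 4.0.16 (TMM, filterByExpr, quasi-likelihood, Benjamini-Hochberg) in R 4.3.3, with DESeq2 1.42.0 as an alternative. Intervals of 95% are the estimate with its standard error and are approximate. The tests were checked on simulated counts with 200 changed genes. CPM use the plain sum of UMIs of a class, while fold changes use TMM scaling. Library floors are 3 counts.

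Members were named in each comparison, with values for the classes picked out in the text, and genes of the other lists where they passed, at most 5 per list and sex. Members and lists were chosen with earlier results of these data known. Libraries sharing a replicate number were not paired. The alternatives were another scaling, test, low-count filter, mitochondrial limit, doublet treatment, clustering resolution, keratin limit for LC-like cells, the replicate block and leaving out each library. The 1 library under 20 T cell-like cells (male HFD replicate 2) was left out of class order tests with T cell-like cells.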

Additional observations from a re-analysis of the deposited data

Results flagged for a closer look

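With mitochondrial UMIs allowed up to 10%, a sebocyte-like cluster appeared, partly in cells that the comparisons above leave out. It passed 5 of the 6 sebocyte markers and held 365 male cells, of which 181 lay within the 5% limit, and 84 female cells, of which 32 did. Libraries held 33 to 99 male and 5 to 22 female cells of it. Members listed here had a pooled level whose exact 95% Poisson interval, which covers counting error only, lay above the other clusters. No test over libraries was made.

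Pparg measured 92.4 CPM (84.7 to 101) in males and 303 CPM (276 to 333) in females, against 0.122 and 0.614 CPM in the pooled other clusters. This cluster held 84.1% of male and 47.3% of female Pparg UMIs. Pdk4 measured 108 CPM (99.8 to 117) and 189.6 CPM (168 to 213), against 0.666 and 0.684 CPM. Ppara measured 16.0 CPM (12.9 to 19.6) and 107 CPM (90.7 to 125), against 0.562 and 5.45 CPM. Angptl4 measured 60.2 CPM (54.0 to 66.8) and 46.9 CPM (36.4 to 59.4), against 1.47 and 1.28 CPM. Nr1h3 measured 7.41 CPM (5.36 to 9.98) and 8.96 CPM (4.77 to 15.3), against 0.192 and 0.313 CPM. Rxra measured 55.5 CPM (49.6 to 61.9) and 77.9 CPM (64.2 to 93.7), against 40.7 and 31.9 CPM. Ppard stood out in males alone, at 23.6 CPM (19.8 to 27.9) against 14.8 CPM, and measured 32.4 CPM (23.8 to 43.1) against 30.3 CPM in females.

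Nr1h2 in basal cells was opposite in the sexes, every male HFD library lying above and every female HFD library below the RD libraries of its sex. The male minus female diet effect was 0.43 on the log2 scale and did not pass (edgeR adjusted p = 0.192). The female groups nearly touched, with the lowest RD library at 22.10 CPM and the highest HFD library at 22.02 CPM. Over all genes 15.5% of male and 21.7% of female results did not overlap.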

How the results depend on the processing

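The 0 members called in each diet comparison became 1 in males, 1 in females and 1 for the difference between sexes with no filter on low counts. DESeq2 called 2 for the difference between sexes. The female one was Pdk4 in LC-like cells, whose UMIs all came from RD replicate 2. Leaving out 1 library gave 0 to 1 members for the difference between sexes, 1 without female RD replicate 2, and 0 in each sex. Of all genes, 4 were called in males, against 1915 with no filter, 624 with DESeq2, 193 at up to 10% mitochondrial UMIs, 3 without scaling factors, 2 with doublets removed and 1 at the higher clustering resolution. Leaving out 1 library gave 1 to 1458 (1458 without RD replicate 3, 166 without RD replicate 2, 8 without HFD replicate 1). In females 1461 were called, against 1250 without scaling factors, 3606 with no filter and 3623 with DESeq2, and 13 to 3034 with 1 library left out (13, 32 and 57 without RD replicates 1, 2 and 3, 3034 and 77 without HFD replicates 2 and 3). The background of called genes is thus unsteady, and the cause was not tested.

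With the replicate block, 0 members were called in either sex or between sexes, and all genes called were 19 in males and 327 in females. The replicate numbers were not used as pairs, since the deviations of same-numbered RD and HFD keratinocyte sums from their group means correlated at -0.06 to 0.10 over genes in males and -0.15 to 0.10 in females, and not every library correlated best with its own number. Under the block Fos and Plin2 lost their calls (edgeR adjusted p = 0.0518 and 0.0969) and Acot1 kept its own (0.0423). In the order of classes, 4 members stood out, 0 with the 6 male or the 6 female libraries alone, where the smallest p is 0.03125 before adjustment, and 3 at up to 10% mitochondrial UMIs. The female migratory log2 fold change of Pdk4 turned from 0.30 to -0.10 without RD replicate 1, -0.37 without HFD replicate 3 and -0.69 without the Scd1 subcluster, and that of Pparg from 0.14 to -0.03, -0.27 and -0.70. Over all libraries left out in turn these ranged from -0.37 to 1.15 for Pdk4 and -0.27 to 0.46 for Pparg. The settings without the subcluster and without scaling factors were chosen after seeing the data. Of the 8 sums per library, leaving out the scaling factors moved the median of all genes most in terminally differentiated cells. For single genes, 245 values under other settings kept direction and side of the threshold, 4 gained a call and 3 lost one. With 1 library left out it was 217, 1 and 12. Depth limits T cell-like cells, where no member could be tested for diet.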
